A study of Mus musculus with 18 samples.

Results

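Hair shaft keratins, the keratins of the sheath around the growing shaft and the keratin-associated proteins (KAPs) were followed through bulk RNA sequencing of mouse skin. The genes were chosen by name and not by a cut on their level, but with earlier results of these data known. They were all protein-coding genes with a symbol starting with Krtap, and the keratins Krt25 to Krt28, Krt31 to Krt36, Krt39, Krt40, Krt71 to Krt75 and Krt81 to Krt87 where the GENCODE M21 annotation of GRCm38 and the files held them. This gave 80 genes of the 41605 gene identifiers in the files, 57 KAP genes and 23 keratin genes. The 18 libraries came from skin of C57BL/6 mice at 8-12 weeks of age and form 3 groups of 6, treated with PBS (the buffer control), detergent A or detergent B. No genotype, dose, time, body site or stage of the hair cycle is given in the labels, and the 2 detergents are known here only by their letters. The labels do not tie libraries to separate animals, so a p-value measures the spread between these samples, which may be technical.

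A hair follicle grows its shaft from dividing matrix cells in the bulb, in concentric layers. The outermost part of what the matrix makes is the inner root sheath, a rigid tube of its own keratins that guides the shaft and is shed before the hair leaves the skin. A companion layer lies between this sheath and the outer root sheath. Inside lie the hair cuticle and the cortex, where hair keratins of type I and type II pair into filaments and KAPs fill the space between them. KAPs are small proteins without introns in their genes, and fall into classes rich in cysteine (high and ultra-high sulphur), which form disulphide bonds, or rich in glycine and tyrosine. Sheath and shaft keratins are known to be made while a follicle is growing, and KAPs appear late, as cells of the shaft harden.

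The genes lie in tight clusters, as the coordinates in GRCm38 show. The type I keratins, 13 of them, lay on chromosome 11 between 99315516 and 100105626, and 23 KAP genes lay inside the same stretch, from 99550130 to 99993994. The 10 type II keratins lay on chromosome 15 from 101431038 to 101802346, with no KAP gene among them. Another 24 KAP genes lay on chromosome 16 from 88610705 to 89571183, 5 on chromosome 7, 3 on chromosome 10 and 2 on chromosome 1. Counted in codons of the annotated coding sequence, 21 KAP genes were ultra-high sulphur (cysteine above 30%, range 30.3% to 42.9%), 15 of the remaining genes were high in glycine and tyrosine (above 35% together, range 47.5% to 69.2%) and 21 were high sulphur (the rest). Krtap10-4 at 30.3% and Krtap10-10 at 30.4% cysteine were just inside the ultra-high class, and Krtap2-4 at 29.8% was just outside it. Cysteine took precedence, so Krtap28-10, Krtap28-13, Krtap5-2 and Krtap5-3, with 38.7%, 42%, 36% and 39.3% glycine and tyrosine, were counted as ultra-high sulphur. Krtap7-1, at 29.9% glycine and tyrosine, was counted as high sulphur.

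Promoters are shown for the KAP gene with the highest level per kilobase, Krtap8-1, for the keratin gene with the highest level, Krt71, and for 3 neighbours that differ in their pattern between libraries, Krtap3-1, Krtap3-2 and Krtap3-3. Krt71 and the Krtap3 genes were chosen after their values were seen. Each run covers 100 bases before to 29 bases after the annotated start, on the minus strand, from RefSeq on GRCm38.p6, and capitals mark TATAAA (the TATA box) and CTTTGAA (a match to the core bound by LEF1 and TCF proteins).
Krtap8-1, chr16:89487924-89488052: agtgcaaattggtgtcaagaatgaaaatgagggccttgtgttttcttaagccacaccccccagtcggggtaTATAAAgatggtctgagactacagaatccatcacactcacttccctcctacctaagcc
Krt71, chr15:101743069-101743197: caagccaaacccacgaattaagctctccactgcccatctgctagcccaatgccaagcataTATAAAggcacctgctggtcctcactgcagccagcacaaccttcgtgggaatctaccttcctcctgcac
Krtap3-1, chr11:99566602-99566730: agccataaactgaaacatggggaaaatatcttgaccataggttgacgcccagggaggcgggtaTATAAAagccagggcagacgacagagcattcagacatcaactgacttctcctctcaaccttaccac
Krtap3-2, chr11:99556825-99556953: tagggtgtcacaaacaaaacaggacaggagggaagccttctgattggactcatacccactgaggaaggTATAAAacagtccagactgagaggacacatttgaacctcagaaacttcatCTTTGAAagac
Krtap3-3, chr11:99550835-99550963: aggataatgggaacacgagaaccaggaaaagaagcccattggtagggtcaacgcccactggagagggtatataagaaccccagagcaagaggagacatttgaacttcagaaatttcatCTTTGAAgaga
TATAAA began 29, 40, 37 and 32 bases before the start in Krtap8-1, Krt71, Krtap3-1 and Krtap3-2. Krtap3-3 had no TATAAA, and the letters tatataag stood there 33 bases before its start. CTTTGAA began at base 19 of the transcript in both Krtap3-2 and Krtap3-3 and was not in the other 3 windows.

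A TATA box was common among these genes. Of the 68 members with a RefSeq promoter of 300 bases (250 before and 50 after the start), TATAAA on either strand was found in 42 of 51 KAP genes (82.4%) and 13 of 17 keratin genes (76.5%), against 14.2% of all 27025 promoters. On the strand of the gene alone the shares were 82.4%, 64.7% and 8.88%. CTTTGAA on either strand was in 17.6% of KAP and 35.3% of keratin promoters, against 5.27% of all. TTTAT, a core bound by HOXC13 and other posterior HOX proteins, was in 90.2% and 94.1%, against 40.9% of all, but the reverse complement of TATAAA contains it. Counted only where it did not overlap the TATA box, TTTAT was in 49% of KAP promoters, 70.6% of keratin promoters and 34.1% of all. These are matches of letters, given as a description, and members that arose by duplication share sequence.

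Levels are read counts scaled to library size by the TMM method, in the usual unit CPM, and genes are compared with each other only as CPM per kilobase of exon. Totals were 17312623 to 29599018 counts per library. As means over all 18 libraries, 5 of the 7 inner root sheath keratins were the most abundant members. Krt71, a type II keratin of all sheath layers, stood at 422 CPM per kilobase, and its type I partners Krt25 and Krt27 stood at 331 and 175. Krt73, of the sheath cuticle, was at 87.8, Krt28, also of the sheath, at 68, Krt75, of the companion layer, at 54.6, and Krt35, the first type I hair keratin of the matrix and precortex, at 39.2 CPM per kilobase. The other two sheath keratins, Krt72 and Krt26 of its cuticle, were lower, at 9.65 and 3.85 CPM per kilobase. The 8 cortex keratins lay between 1.29 (Krt34) and 4.18 (Krt83), and the 57 KAP genes had a median of 0.311 CPM per kilobase, with Krtap8-1 highest at 9.18. All 8 members with no count in any library were KAP genes, as were the 16 with fewer than 10 counts in total, which include those 8.

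**Figure D1:**
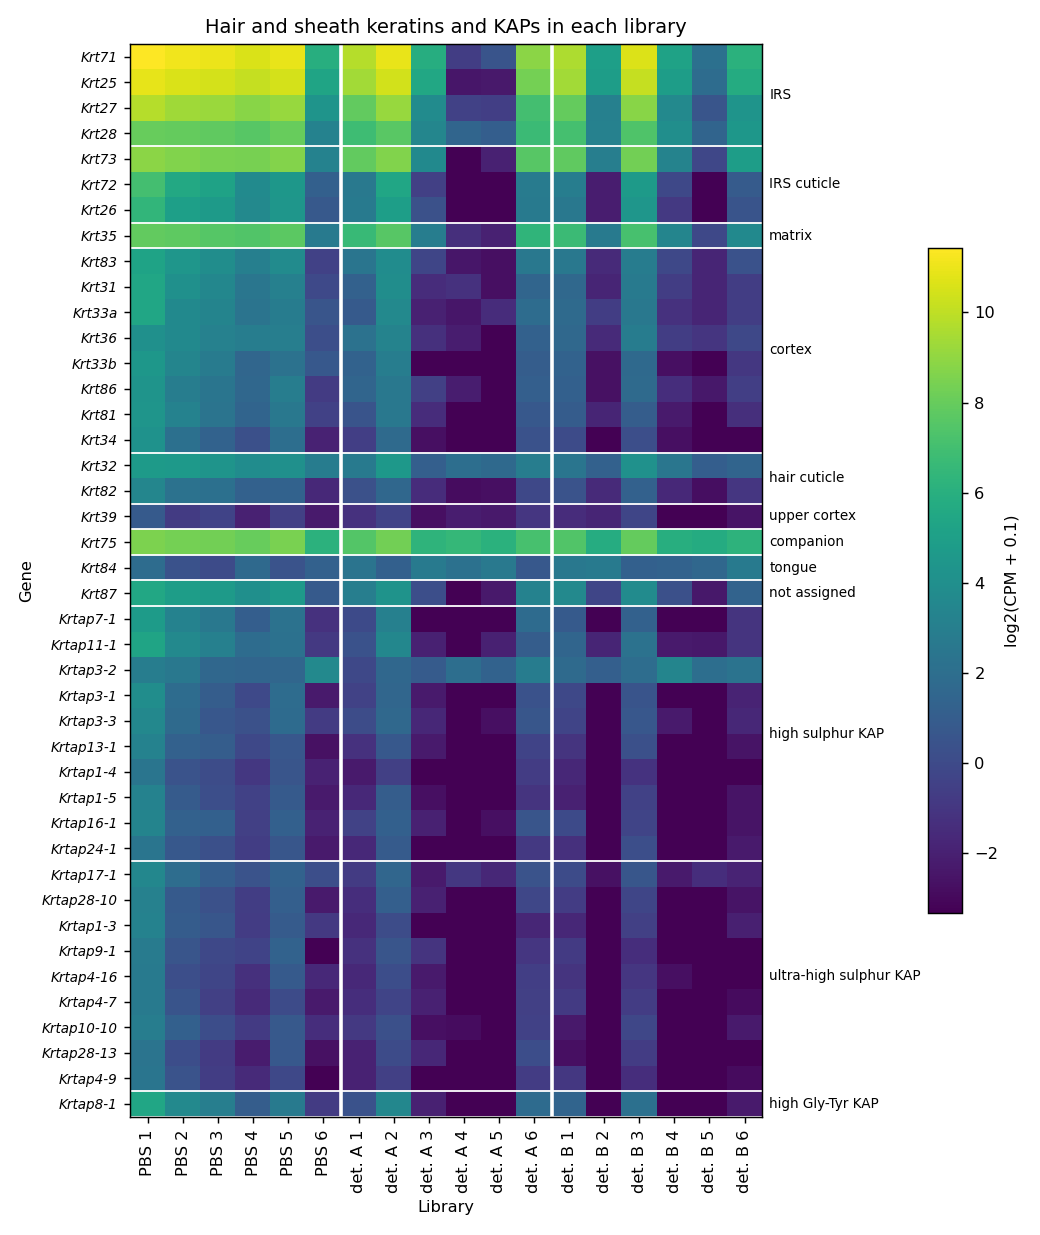
Level of each of the 42 members that passed the filter on low counts, as log2(CPM + 0.1) by colour, with genes in rows by layer or class and the 18 libraries in columns by group (det., detergent). PBS replicate 1 is the brightest column, and 8 columns (PBS replicate 6, detergent A replicates 3, 4 and 5, detergent B replicates 2, 4, 5 and 6) are dark in nearly every row.

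The libraries stood apart from each other far more than the groups did. Summed over the 7 inner root sheath keratins (Krt25 to Krt28 and Krt71 to Krt73), the level was 3248, 2571, 2375, 1867, 2359 and 71.8 CPM per kilobase in PBS replicates 1 to 6. It was 1094, 2322, 71.9, 2.34, 2.37 and 628 in detergent A replicates 1 to 6, and 1041, 44.3, 1870, 54.2, 6.67 and 100 in detergent B replicates 1 to 6. So 8 libraries were at or below 100 CPM per kilobase and the other 10 at or above 628, and the 8 low libraries were 1 of PBS, 3 of detergent A and 4 of detergent B. The highest library was 1390 times the lowest, detergent A replicate 4, which held 94 counts over the 7 genes. The labels give no batch, extraction day or collection day that could be set beside this split. In bulk skin, fewer cells of a type and less RNA per cell cannot be told apart.

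The other layers ranked much the same libraries lowest. The same 8 libraries were the lowest 8 for Krt35, for the summed cortex keratins, for Krt75, for the ultra-high sulphur KAPs and for the high glycine-tyrosine KAPs. For the summed cuticle keratins Krt32 and Krt82, for the high sulphur KAPs and for all KAPs together, 7 of the 8 were shared. PBS replicate 6 was low with the other 7 for every one of these sums except the cuticle keratins, the high sulphur KAPs and the KAP total. Across all 80 members, the share of a library's counts ran from 0.811% in PBS replicate 1 to 0.00737% in detergent B replicate 5. The number of members with any count ran from 70 in PBS replicate 1 to 19 in detergent A replicate 4 and 20 in detergent B replicate 5.

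**Figure D2:**
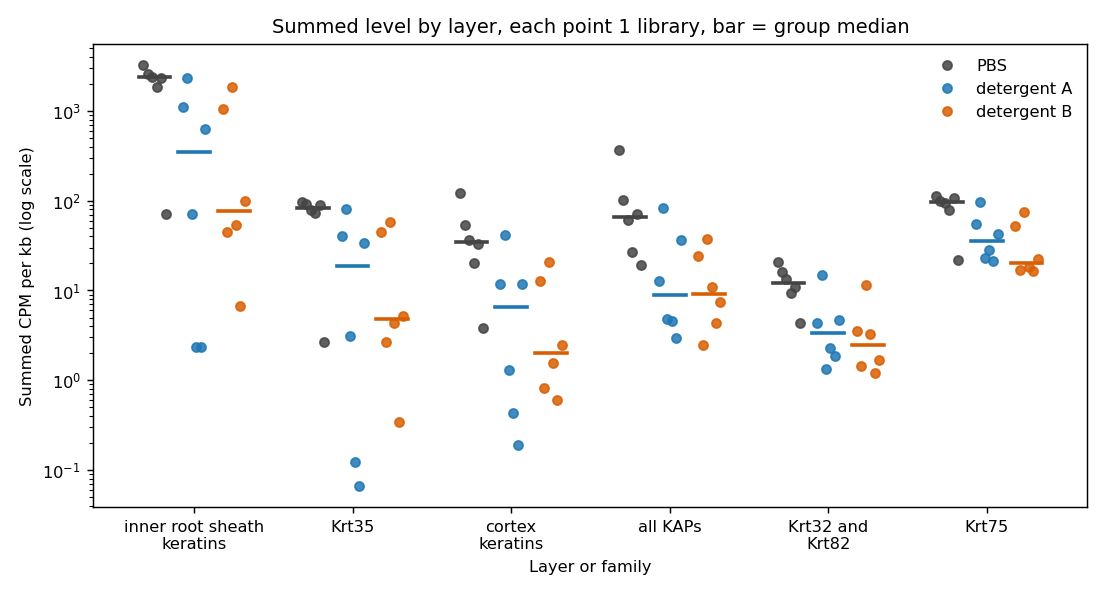
Summed level by layer or family in CPM per kilobase on a log scale, each point 1 library and each bar the median of 6, for PBS, detergent A and detergent B. For the sheath keratins each group of 6 spans the gap, and the PBS point that stands apart at the bottom, at 71.8, is replicate 6.

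The medians of the 6 libraries were lower with both detergents in each layer, while the ranges overlapped in each. For the inner root sheath keratins the medians were 2367, 350 and 77.3 CPM per kilobase with PBS, detergent A and detergent B, and for Krt35 they were 83.3, 18.6 and 4.8. For the cortex keratins they were 34.8, 6.5 and 2, for Krt32 and Krt82 12, 3.33 and 2.47, and for Krt75 97.4, 35.5 and 20.5. For the KAPs they were 66.5, 8.89 and 9.22 CPM per kilobase. For the sheath keratins and Krt35, with 6 values that fall on either side of a wide gap, a median moves with the number of libraries on each side. The KAP sums and those of Krt32 and Krt82 had no such gap.

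Krt71 carries the pattern of the sheath. It was at 2766, 2211, 2027, 1573, 1960 and 60.6 CPM in PBS replicates 1 to 6, at 895, 2006, 57.6, 0.542, 1.32 and 472 with detergent A, and at 790, 32.4, 1625, 36.1, 4.31 and 69.7 with detergent B. Detergent A replicate 2 and detergent B replicate 3 thus reached the PBS range, and PBS replicate 6 lay among the low treated libraries. The mean was 1766 ± 922 CPM with PBS, 572 ± 786 with detergent A and 426 ± 660 with detergent B (SD, n = 6 each). The log2 fold changes of Krt71 were -1.63 ± 1.43 (SE) for detergent A and -2.05 ± 1.45 for detergent B against PBS, with adjusted p = 0.5569 and 0.4023 by edgeR.

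Its relatives moved alike across libraries. Krt25 ran from 39.4 to 1862 CPM in PBS, from 0.0834 to 1394 with detergent A and from 3.64 to 1139 with detergent B, and had the widest spread within groups of all members, an SD of 4.01 on the log2 scale. Krt28 kept the highest floor of the 4 sheath keratins other than the cuticle ones, at 2.05 CPM in detergent A replicate 5 and 2.63 in detergent B replicate 5. The sheath cuticle keratins Krt72 and Krt26 reached 0 in detergent A replicates 4 and 5 and detergent B replicate 5, and Krt73 reached 0 in detergent A replicate 4. None of the 7 sheath keratins passed the test in either detergent comparison, and their log2 fold changes lay between -2.19 (Krt72) and -1.23 (Krt73) with detergent A and between -2.78 (Krt72) and -1.76 (Krt73) with detergent B.

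Krt35 followed the sheath keratins closely. It was at 234, 217, 187, 175, 213 and 6.37 CPM in PBS replicates 1 to 6, at 97.2, 195, 7.47, 0.292, 0.158 and 81.7 with detergent A, and at 107, 6.44, 139, 10.5, 0.814 and 12.5 with detergent B. The lowest value stands on 3 counts. Relative to the summed sheath keratins per kilobase, Krt35 was 3% to 3.91% in PBS, 2.79% to 5.43% with detergent A and 3.1% to 8.09% with detergent B, so this ratio stayed within a narrow band while both levels moved by orders of magnitude. Its log2 fold changes were -1.43 ± 1.19 (SE, adjusted p = 0.5322 by edgeR) and -1.90 ± 1.21 (adjusted p = 0.35).

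The cortex keratins Krt31, Krt33a, Krt33b, Krt34, Krt36, Krt81, Krt83 and Krt86, which build the bulk of the shaft, were highest in PBS replicate 1. Their summed level was 123, 53.4, 36.5, 20.1, 33 and 3.82 CPM per kilobase in PBS replicates 1 to 6, 11.7, 41.3, 1.29, 0.435, 0.19 and 11.8 with detergent A, and 12.7, 0.821, 20.6, 1.54, 0.596 and 2.46 with detergent B. Relative to the sheath keratins this was 3.8% in PBS replicate 1, 1.07% to 2.08% in replicates 2 to 5 and 5.32% in replicate 6. It was highest in detergent A replicates 4 and 5, at 18.6% and 8.01%, and in detergent B replicate 5, at 8.93%, where the 8 genes held 18, 7 and 22 counts. Krt34, of the upper cortex, was the member with the lowest log2 fold change of the keratins, -3.83 ± 1.17 (SE) with detergent B (adjusted p = 0.07198 by edgeR), and -2.54 ± 1.05 with detergent A (adjusted p = 0.2067). Its values were 18.4, 4.34, 2.41, 1.1, 3.89 and 0.168 CPM in PBS, and it had no count in detergent A replicates 4 and 5 or in detergent B replicates 2, 5 and 6. The type II partners Krt81 and Krt86 had log2 fold changes of -3.29 and -2.69 with detergent B and -2.29 and -1.91 with detergent A, and none of the 8 cortex keratins passed the test.

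The hair cuticle keratins, which cover the shaft with overlapping scales, showed 2 patterns. Krt32, type I, kept a floor: it was at 7.32 to 26.7 CPM in PBS, 2.07 to 23.1 with detergent A and 2.01 to 17.7 with detergent B. Krt82, its type II counterpart, went from 0.223 to 10.7 CPM in PBS, from 0.0417 to 3 with detergent A and from 0.0479 to 2.25 with detergent B. Krt32 overlaps the annotated gene Gm11571, and the strand setting of the counting is not given in the sources used here, so its level is uncertain. Krt39 and Krt40, of the upper cortex and cuticle, stayed low, at no more than 1.7 and 3.58 CPM, and Krt40 was the only keratin not tested.

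Krt75, of the companion layer, varied least among the abundant members. It was at 369, 326, 310, 256, 347 and 71.7 CPM in PBS replicates 1 to 6, at 179, 316, 76.1, 91.4, 69.8 and 140 with detergent A, and at 172, 55.9, 242, 60.4, 53.2 and 73.4 with detergent B. The same 8 libraries were lowest, but the highest was 6.94 times the lowest where the sheath keratins differed 1390 times. Its ratio to the sheath keratins per kilobase was 3.48% to 4.5% in PBS replicates 1 to 5 and 30.6% in PBS replicate 6. It was 1198% and 902% in detergent A replicates 4 and 5, where the sheath keratins held 94 and 80 counts. Its log2 fold changes were -0.95 ± 0.46 (SE, adjusted p = 0.275 by edgeR) with detergent A and -1.35 ± 0.46 (adjusted p = 0.09869) with detergent B. Krt75 overlaps the annotated gene Gm44460, with the same uncertainty as for Krt32.

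Krt84, a type II hair keratin known from the filiform papillae of the tongue, had the opposite sign to all other members tested. It was at 3.68, 1.23, 0.933, 3.22, 1.25 and 2.29 CPM in PBS replicates 1 to 6, at 5.05, 2.24, 6.41, 4.46, 6.16 and 1.55 with detergent A, and at 5.88, 6.56, 2.17, 2.35, 2.92 and 6.72 with detergent B. Its log2 fold changes were 1.01 ± 0.42 (SE, adjusted p = 0.2027 by edgeR) and 1.06 ± 0.42 (adjusted p = 0.1395), so it did not pass, and the groups overlapped. Krt87, for which no layer was assigned, followed the cortex and sheath keratins, at 1.73 to 45.8 CPM in PBS, 0 to 19.2 with detergent A and 0.0958 to 13.7 with detergent B.

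KAP genes were low, and their summed level was highest in PBS replicate 1. Summed over the 57 genes, the level was 364, 103, 61.5, 26.7, 71.4 and 19 CPM per kilobase in PBS replicates 1 to 6, 12.9, 83.2, 4.87, 4.52, 2.95 and 36.9 with detergent A, and 24, 2.45, 37.5, 10.9, 4.36 and 7.54 with detergent B. The filter on low counts kept 20 of the 57, 10 of 21 high sulphur, 9 of 21 ultra-high sulphur and 1 of 15 high glycine-tyrosine genes. The counts behind the class sums were small in the low libraries. The ultra-high sulphur genes held 2866 counts together in PBS replicate 1, 49 in PBS replicate 6 and 1 in detergent B replicate 2.

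The leading genes of the 3 classes showed the same libraries high and low. Krtap8-1, the only glycine-tyrosine gene tested, was at 42.7, 12.3, 7.76, 1.96, 6.52 and 0.503 CPM in PBS, at 1.22, 11.3, 0.159, 0, 0 and 3.53 with detergent A, and at 2.55, 0, 4.3, 0, 0 and 0.108 with detergent B. Krtap22-2 and Krtap6-1 followed it in that class at only 0.501 and 0.0576 CPM per kilobase, and Krtap6-1 shares 97.9% of its coding sequence with Krtap6-5. Of the high sulphur genes, Krtap7-1 and Krtap11-1, both of the cortex, were at 8.26 ± 9.91 and 11.4 ± 14.3 CPM in PBS (SD, n = 6). Of the ultra-high sulphur genes, Krtap17-1 led with 3.61 ± 3.82 CPM in PBS, followed per kilobase by Krtap1-3 and Krtap28-10. In each of the genes of this paragraph that were tested, the SD in PBS exceeded the mean, with replicate 1 highest.

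With detergent A, no member passed the test against PBS. Of the 42 members tested, 0 passed an adjusted p of 0.05 in edgeR's quasi-likelihood test, where 0.137% of all 16836 genes tested were lower and 0.0535% higher. At an unadjusted p under 0.05, 17 were lower and 1, Krt84, was higher, against 8.71% and 10% of all genes. DESeq2 also called 0 members, and 797 of 28040 genes over all. Limma with sample quality weights called 32 of the 42 members, and 3914 of 16836 genes over all. The log2 fold change was negative in 41 and positive in 1 of the 42, against 51.6% and 48.4% of all genes, and the median was -1.99 against -0.01 over all genes. These 42 share the same libraries, so their signs are not 42 separate observations. Some of them passed the filter on low counts through the PBS libraries, which favours a negative sign. The median SE was 0.967 over the members and 0.15 over all genes, and the smallest adjusted p was 0.0822, of Krtap1-3. The count of members called was 3 without PBS replicate 6, 4 without detergent A replicate 2 and 0 without any other library. Over all genes, 888 were called without PBS replicate 6 and 847 without detergent A replicate 2.

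With detergent B, 2 members fell against PBS, the neighbouring KAP genes Krtap1-3 and Krtap1-4, of the cortex. That is 4.76% of the 42 tested, where 1.08% of all genes were lower. 0 members were higher, where 1.97% of all genes were. DESeq2 called 7 of 70 members, all lower, and 1391 of 28040 genes over all. Limma with sample quality weights called 41 of 42 members (40 lower, and Krt84 higher), and 5074 of 16836 genes over all. With the replicate number as a block, edgeR called 0 members and 377 genes over all. Krtap1-3, on chromosome 11 from 99590461 to 99591339, was at 9.38, 1.87, 1.42, 0.511, 1.76 and 0.447 CPM in PBS, 0.208, 0, 0.592, 0, 0 and 0.145 with detergent B, and 0.222, 0.972, 0, 0, 0 and 0.198 with detergent A. Krtap1-4, from 99583062 to 99583654, was at 5.22, 1.28, 0.982, 0.432, 1.39 and 0.168 CPM in PBS and at 0.208, 0, 0.355, 0, 0 and 0 with detergent B. The highest treated value of each was above the lowest PBS value, so the groups overlapped for both. The log2 fold changes were -3.87 ± 0.98 (SE, adjusted p = 0.04146 by edgeR) and -3.94 ± 1 (adjusted p = 0.04162), with all 6 libraries below the PBS mean.

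These 2 calls depended on which libraries were kept, as did the calls over all genes. Krtap1-3 kept its call in 8 and Krtap1-4 in 10 of 18 fits that left out 1 library each, and without PBS replicate 1 their log2 fold changes were -2.76 and -3.02, with no call. The adjusted p by edgeR over these fits was 0.0179 to 0.1191 for Krtap1-3 and 0.01529 to 0.1131 for Krtap1-4. The number of members called against PBS was 0 without PBS replicate 1, 2, 3 or 5 and without detergent B replicate 2, 4, 5 or 6. Over all genes the calls fell from 514 to 150, 30, 28 and 82 in the first of these fits. They fell to 87, 176, 99 and 153 without those detergent B replicates, so the loss was not particular to the members. It was 22 without PBS replicate 6 and 17 without detergent B replicate 3, where 1888 and 1047 genes were called over all. It was 7 without detergent A replicate 2, 6 without detergent B replicate 1, 4 without detergent A replicate 3, and 3 without PBS replicate 4 or detergent A replicate 4 or 6, where the treated A libraries enter through the shared estimate of spread.

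Below the threshold most members leaned the same way with detergent B. At an unadjusted p under 0.05, 32 of 42 were lower and 1, Krt84, was higher, against 11.1% and 12.3% of all genes. The log2 fold change was negative in 41 and positive in 1 of the 42, against 51.3% and 48.7% of all genes, with a median of -2.87 against -0.01 over all genes. By class, the unadjusted p was under 0.05 in 9 of 9 ultra-high sulphur KAPs, 9 of 10 high sulphur KAPs, 8 of 8 cortex keratins and 1 of 7 sheath keratins. These are only the genes that passed the filter on low counts, in part through the PBS libraries. With the 12 detergent libraries alone, 18 members passed it, against 42 with all libraries. The shares that were lower than PBS are thus in part set by the filter. The sheath keratins had the wider SD within groups, with a median of 3.43 on the log2 scale in the 4 of the sheath layers proper against 1.51 in the ultra-high sulphur KAPs. That SD was taken with a prior count of 2, which narrows it for genes near 0 counts, as the KAPs were in the low libraries. Summed per kilobase, the highest library was 1176 times the lowest for the ultra-high sulphur KAPs and 1390 times for the 7 sheath keratins. Next after the 2 called genes came Krtap9-1 at -3.97 ± 1.08 (SE, adjusted p = 0.05222 by edgeR), Krtap10-10 at -3.54 ± 0.97 (adjusted p = 0.0531), Krtap4-16 at -3.63 ± 1.01 (adjusted p = 0.0561) and Krtap17-1 at -2.79 ± 0.78 (adjusted p = 0.05635). Krtap10-10 overlaps the annotated gene Tspear, so its level is uncertain. Both detergent comparisons use the same 6 PBS libraries, so they are not independent of each other.

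**Figure D3:**
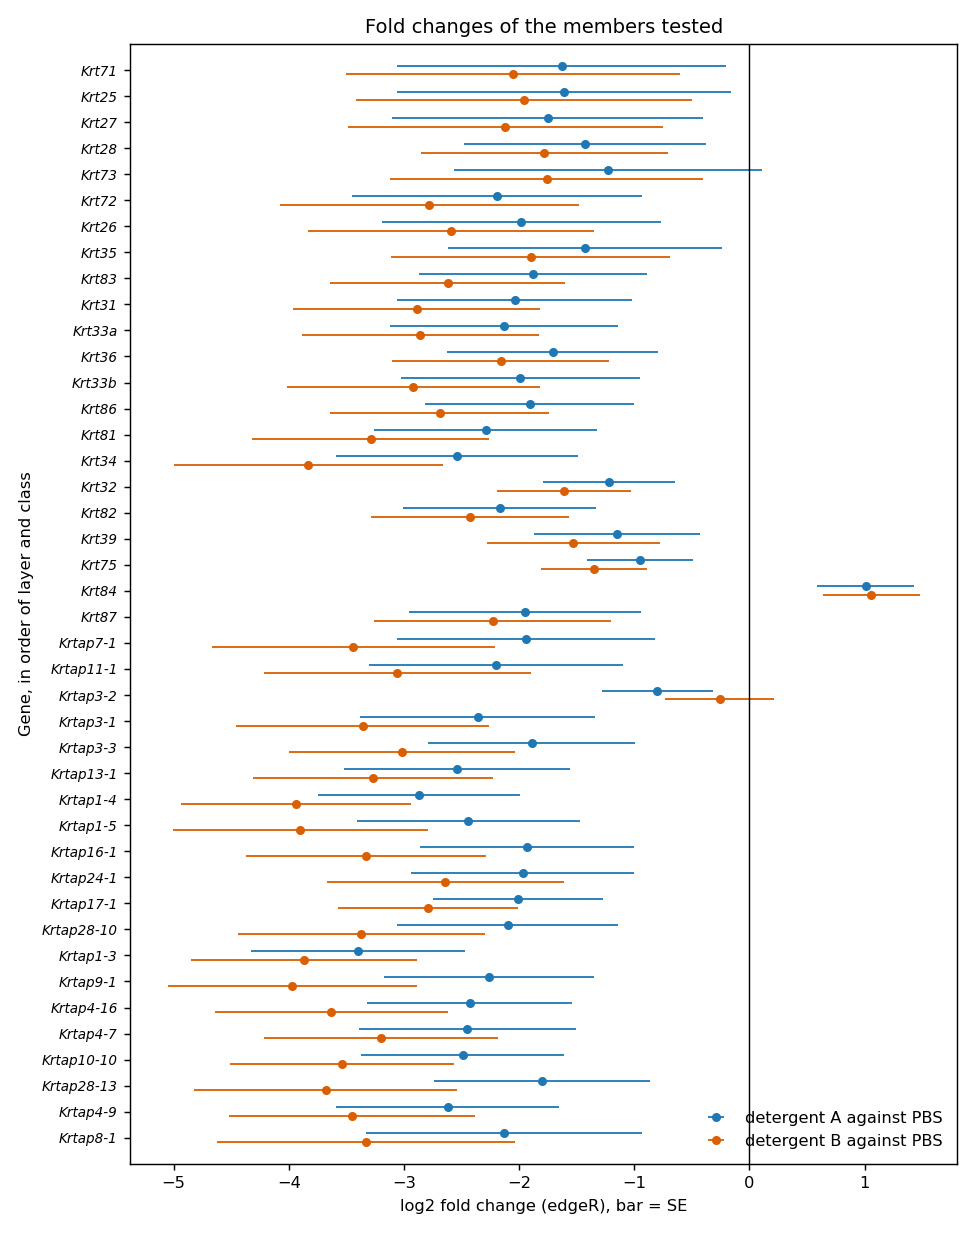
Log2 fold changes with their standard errors by edgeR for the 42 members tested, detergent A against PBS and detergent B against PBS, in order of layer and class. All but Krt84 lie left of 0 for both, and the bars of the sheath keratins Krt25, Krt71 (-1.63 ± 1.43 with detergent A), Krt27 and Krt73 are the longest.

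Between the detergents no member passed the test. Of the 42 members, 0 were called and 0 had an unadjusted p under 0.05 in edgeR for detergent B against detergent A, where 0% of all genes were called and 1.48% were lower and 1.79% higher at the unadjusted threshold. Limma with sample quality weights called 0 members, and DESeq2 called 0 and found 1 with an unadjusted p under 0.05. The log2 fold change was negative in 40 and positive in 2 of the 42, against 50.1% and 49.9% of all genes. The median log2 fold change of the members was -0.75, with a median SE of 1.14, and it was 0.24 without detergent A replicate 2, the only detergent A library within the sheath range of PBS replicates 1 to 5. A difference of the size of that SE was thus not detectable here, and the p-values do not show that the detergents act alike. None of the 42 members tested had groups that did not overlap in any of the 3 comparisons. Of all genes tested, 0.956%, 1.12% and 0.0297% did with lower values and 0.404%, 1.72% and 0.0297% with higher values. Krtap2-4, which was not tested, had groups that just failed to overlap with detergent B. Its highest detergent B value was 0.11 CPM and its lowest PBS value 0.112 CPM.

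The spread within groups was extreme for every member. The SD of log2 CPM around the group means ran from 0.78 (Krt84) to 4.01 (Krt25) over the 42 members tested, with a median of 1.87, against a median of 0.26 over all genes tested. All 42 lay above the 95th percentile of all genes, the lowest, Krt84, at the 95.6th, and 35 lay above the 99th. After Krt84, the members with the least spread were Krt75 and Krtap3-2, both at 0.89, and Krt32 at 1.04. The most spread after Krt25 was in Krt73 at 3.81, Krt71 at 3.6, Krt27 at 3.26 and Krt35 at 3.12. A prior count of 2 narrows the SD of members near 0 counts, so this order depends in part on level.

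Among PBS libraries that were high for the sheath, replicate 1 was higher still for the shaft. It was the highest of all 18 libraries for 39 of the 42 members tested. Set against the median of PBS replicates 2 to 5, a reference chosen after the values were seen, PBS replicate 1 held 1.08 to 4.53 times the level of the 7 sheath keratins, with a median of 1.39. For the 8 cortex keratins the ratio was 2.08 to 5.85, with a median of 3.75, and for the 20 KAP genes tested it was 2.54 to 8.66, with a median of 5.7. Krt35, of the first step of shaft differentiation, was at 1.17 times and Krt75 at 1.16 times, while Krt34, of the upper cortex, was at 5.85 and Krtap4-7 at 8.66 times. Within the sheath the cuticle genes Krt72 and Krt26, at 4.53 and 3.53 times, stood above Krt73 at 1.26 and the other 4 at 1.08 to 1.53. This is a single library, which is also the deepest with 29599018 counts, so the ratios have no replicate check.

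**Figure D4:**
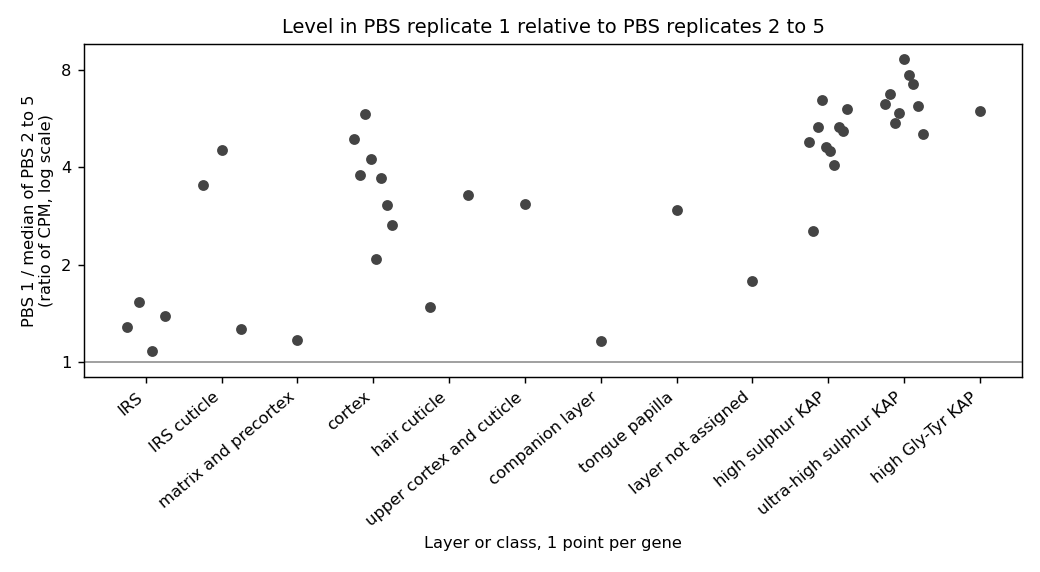
Level in PBS replicate 1 divided by the median of PBS replicates 2 to 5 for each of the 42 members tested, on a log scale, 1 point per gene, by layer or class. The sheath keratins other than Krt72 and Krt26 lie between 1.08 and 1.53, and all KAP genes lie at 2.54 or above.

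PBS replicate 6 departed in the other direction. It held 2.4% to 7.48% of the same median for the sheath keratins, 4.29% to 27.1% for the cortex keratins and a median of 7.89% for the KAP genes. Krt32 kept 40.5%, Krt75 22.5% and Krtap17-1 48.5%. Krt84 stood at 184% and Krtap3-2 at 424% of that median, the only members above it.

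Krtap3-2 thus went its own way among its neighbours. The 3 Krtap3 genes, high sulphur KAPs of the cortex, lie next to each other on chromosome 11, Krtap3-3 from 99550130 to 99550865, Krtap3-2 from 99555823 to 99556853 and Krtap3-1 from 99566027 to 99566630. Krtap3-1 was at 14.8, 3.61, 1.96, 0.864, 3.61 and 0.112 CPM in PBS replicates 1 to 6, and had 0 counts in detergent A replicates 4 and 5 and in detergent B replicates 2, 4 and 5. Krtap3-3 followed it, at 11.7, 3.38, 1.52, 1.18, 3.42 and 0.503 CPM in PBS. Krtap3-2 was highest in PBS replicate 6 and detergent B replicate 4, where it held 221 and 192 counts against 9 and 2 for Krtap3-3. It held 96 counts in detergent A replicate 4, where the other pair held none.

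The 3 genes are close in sequence. The coding sequences of Krtap3-2 and Krtap3-3 were 100% identical, and that of Krtap3-1 was 83.3% identical to either, while their promoters of 300 bases were 62.8%, 56.6% (Krtap3-1 and Krtap3-2) and 56.3% (Krtap3-1 and Krtap3-3) identical, position by position. How the authors' counting treated reads that fit several genes is not given in the sources used here, so the split between Krtap3-2 and Krtap3-3 is uncertain. The log2 fold changes of Krtap3-2 were -0.80 ± 0.48 (SE, adjusted p = 0.3794 by edgeR) with detergent A and -0.26 ± 0.47 (adjusted p = 0.7788) with detergent B. Without PBS replicate 6 the latter was 0.12. Those of Krtap3-1 were -2.36 and -3.36, and those of Krtap3-3 were -1.89 and -3.02.

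**Figure D5:**
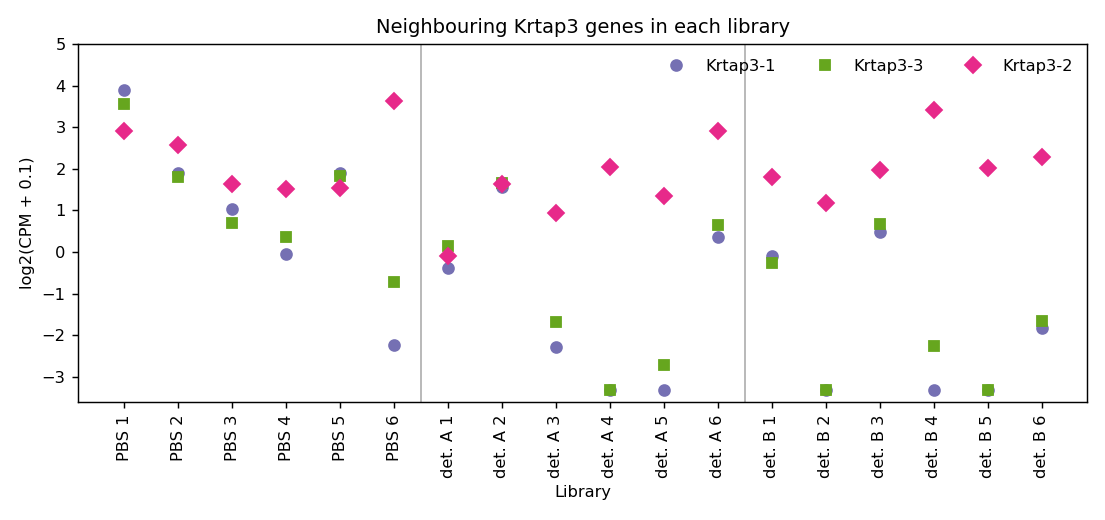
Level of Krtap3-1, Krtap3-2 and Krtap3-3 in each of the 18 libraries as log2(CPM + 0.1), 1 point per gene and library. Krtap3-1 and Krtap3-3 move together between libraries, while Krtap3-2 is high in PBS replicate 6 and detergent B replicate 4 (10.5 CPM), where the other pair is low.

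Other genes of the follicle, taken from lists by role, had few calls. Of 9 hair shaft transcription factors tested, 0 passed in either detergent comparison. At an unadjusted p under 0.05 in edgeR, 2 were lower and 1 higher with detergent A, and 4 were lower and 1 higher with detergent B. Over all genes, 8.71% and 11.1% were lower and 10% and 12.3% higher at that threshold. The summed level of that list was 444 to 706 CPM in PBS, 286 to 644 with detergent A and 327 to 625 with detergent B. Gata3 alone held 135 to 193, 111 to 164 and 116 to 175 CPM of it. Foxn1, whose loss gives the nude mouse, had a log2 fold change of -0.44 ± 0.14 (SE, adjusted p = 0.07533 by edgeR) with detergent B, and Prdm1 had one of 0.48 ± 0.15 (adjusted p = 0.07759). Of 13 sheath and shaft proteins and enzymes tested, 0 passed in either (7 and 5 at the unadjusted threshold, 4 and 3 of them lower). Their summed levels were 2610 to 4430, 2156 to 3521 and 2808 to 3906 CPM. Krtdap, a protein of differentiating keratinocytes, alone held 1138 to 2409, 1491 to 3307 and 1898 to 3708 CPM of this. A summed level can thus hide changes in other genes of its list. The log2 fold change was negative in 10 and 9 of the 13, with medians of -1.1 and -1.71. With detergent B, Krtdap had a log2 fold change of 0.82 ± 0.22 (adjusted p = 0.0531 by edgeR). Tgm3, a transglutaminase of sheath and epidermis, had one of 1.04 ± 0.30 (adjusted p = 0.06252 by edgeR). Ly6g6d went the other way, at -2.38 ± 0.72 (adjusted p = 0.07202 by edgeR). Of 10 melanocyte genes 0 passed in either (2 and 2 at the unadjusted threshold), with summed levels of 113 to 608, 93.8 to 622 and 130 to 466 CPM. Of 12 proliferation genes 0 passed (0 and 0 at the unadjusted threshold), with summed levels of 562 to 1190, 513 to 1296 and 582 to 1077 CPM. The bulge and germ genes summed to 1133 to 2253, 981 to 1715 and 937 to 1489 CPM, of which Krt15 alone held 546 to 1777, 495 to 1137 and 405 to 1025. Of 8 genes of the bulge and hair germ, 2 were lower and 1 higher with detergent A at the unadjusted threshold, and 2 were lower with detergent B. Among them 1 passed with detergent B: Sox9, a factor of follicle stem cells, fell by 0.44 ± 0.12 (SE) on the log2 scale (adjusted p = 0.04662 by edgeR). Its PBS values were 90.6 to 120 CPM and its detergent B values 55.8 to 96.3, and leaving out single libraries ended the call in 12 of 18 fits, those without PBS replicates 1 to 5, detergent A replicates 1, 4 and 5 and detergent B replicates 2, 4, 5 and 6, with adjusted p up to 0.1153.

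Several of these genes followed the keratins across libraries, and they are named after their values were seen. Tchh, which encodes trichohyalin of the sheath, was at 2094, 1416, 1378, 823, 1197 and 60.2 CPM in PBS replicates 1 to 6, at 532, 1093, 50.7, 10.5, 9.27 and 213 with detergent A, and at 498, 33.9, 927, 28.9, 11.6 and 48.1 with detergent B. Hoxc13, a regulator of hair keratin genes, was at 44.1 to 68.3 CPM in PBS replicates 1 to 5, at 8.21 in replicate 6, at 4.48 to 55.5 with detergent A and at 5.46 to 43.1 with detergent B. Msx2, another factor of the matrix, went from 6.42 to 63.8 CPM in PBS, from 2.38 to 59.9 with detergent A and from 3.35 to 42.3 with detergent B. Foxn1 did not share this range, at 21.2 to 34.8, 17.8 to 25.5 and 13.8 to 26.5 CPM. Among melanocyte genes Tyrp1, of pigment synthesis, was at 103 to 130 CPM in PBS replicates 1 to 5 and 13.4 in replicate 6. It was at 12.7 to 133 CPM with detergent A and 21.6 to 94.7 with detergent B. Tyr, Dct, Pmel, Mlana, Slc45a2 and Oca2 were likewise much lower in PBS replicate 6 than in the other PBS libraries. Mitf, Sox10 and Kit of that list ranged less, at 25.6 to 40.8, 7.26 to 10.8 and 11 to 27 CPM in PBS.

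Markers of the other cells in skin were present in each group. No gene of the epidermal, fibroblast, muscle, adipocyte, sebaceous or immune lists was at 0 in every library. The 8 genes of the epidermis between follicles summed to 16169 to 31901 CPM in PBS, 21178 to 52691 with detergent A and 27955 to 48300 with detergent B. Krt1, of suprabasal epidermis, rose with detergent B from 4523 ± 1376 to 12567 ± 3337 CPM (SD, n = 6 each), a log2 fold change of 1.47 ± 0.28 (SE, adjusted p = 0.01591 by edgeR). That call was lost without PBS replicate 2 or 3, with adjusted p up to 0.06018. The 6 sebaceous gland genes summed to 3073 to 5025, 3249 to 6451 and 4321 to 6627 CPM, the 6 fibroblast genes to 5478 to 9717, 3263 to 8232 and 4657 to 8370, and the 6 immune genes to 154 to 252, 110 to 238 and 165 to 308. The 6 muscle genes summed to 4330 to 8772, 4192 to 9280 and 5504 to 12771 CPM and the 5 adipocyte genes to 458 to 848, 315 to 632 and 415 to 862. None of the sebaceous, fibroblast, immune, muscle and adipocyte genes passed the test in either comparison. At an unadjusted p under 0.05 in edgeR, 5 of 6 sebaceous gland genes and 3 of 8 epidermal genes were higher with each detergent. Over all genes, 10% and 12.3% were higher at that threshold. Of the fibroblast genes, 2 were lower with detergent A and 1 with detergent B, against 8.71% and 11.1% of all genes. Of the muscle genes, 1 was higher and 1 lower with detergent B. The part that shares of other tissues play in the keratin levels was not tested.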

How the data were processed

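Total RNA of mouse skin was sequenced, per the labels' protocols. The authors deposited unnormalised whole-number read counts per gene, made with STAR and featureCounts on GRCm38.p5 per the submitters' processing notes; strand setting, tool versions, gene annotation and treatment of reads that fit several genes are unknown (not given in the sources used here). Of 41605 identifiers, 41519 matched GENCODE M21. Testing used edgeR 4.0.16 (R 4.3.3): default filter on low counts (16836 genes, at least 99.89% of each library's counts), TMM scaling, 1 robust quasi-likelihood fit with group as the only term over 18 libraries (15 residual degrees of freedom), Benjamini-Hochberg adjustment over all genes tested, threshold 0.05. The SE is the size of the log2 fold change divided by the square root of F. The fit was tested on simulated data. No library pair agreed within sampling noise (chi-square per gene at least 8.892).

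KAP classes were set from codons of GENCODE coding sequences, because no protein table was used here. Members and gene lists were chosen with earlier results of these data known. Named genes are every keratin, the 3 KAP genes with the highest CPM per kilobase in each class, the 6 members with the smallest p per comparison whose higher group averaged 1 CPM or more, and list genes with the smallest p; others were named after their values were seen. Alternatives were DESeq2 1.42.0, limma 3.58.1 voomWithQualityWeights, other size factors and filters, a non-robust fit, scaling without the members, the 12 libraries compared alone, a replicate block and each library left out in turn.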

Additional observations from a re-analysis of the deposited data

Results flagged for a closer look

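Dixon's test was run on CPM within groups of 6, at its 95% limit. That limit assumes normally distributed values, and many of these were skewed, so no rate by chance is given. The highest or lowest library of a named member lay far from its nearest neighbour by this limit in 46 of 111 cases. The members share the same libraries, so these are not separate events, and the cause was not tested.

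PBS replicate 1 was the highest PBS library in 19 of them. Among keratins it stood at 84.9 CPM for Krt26, 132 for Krt72, 42.3 for Krt33a, 18.4 for Krt34, 19.5 for Krt86, 1.7 for Krt39 and 3.58 for Krt40. Among KAP genes it stood at 11.1 CPM for Krtap17-1, 9.38 for Krtap1-3, 5.22 for Krtap1-4, 8.99 for Krtap28-10, 27.5 for Krtap7-1, 39.5 for Krtap11-1, 42.7 for Krtap8-1, 7.42 for Krtap10-10, 6.46 for Krtap4-16, 5.31 for Krtap4-9, 6.82 for Krtap9-1 and 0.512 for Krtap6-1.

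Detergent A replicate 2 was the highest of its group in 14. It stood at 31.1 CPM for Krt26, 41.9 for Krt72, 12.1 for Krt33a, 7.65 for Krt33b, 3.29 for Krt34, 15 for Krt31, 23.1 for Krt32, 5.79 for Krt81 and 0.803 for Krt40, and at 0.972 for Krtap1-3, 11.2 for Krtap11-1, 11.3 for Krtap8-1, 1.39 for Krtap9-1 and 0.0422 for Krtap6-1. Detergent B replicate 3 was the highest in 7, at 21.6 CPM for Krt26, 26 for Krt72, 17.7 for Krt32, 0.75 for Krt39, 0.474 for Krt40, 0.592 for Krtap1-3 and 0.789 for Krtap10-10.

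PBS replicate 6 was the lowest PBS library in 3, at 9.39 CPM for Krt28, 6.37 for Krt35 and 9.05 for Krt73, where the other 5 were at 196 to 259, 175 to 234 and 341 to 475. Detergent B replicate 4 was highest for Krtap3-2, at 10.5 CPM against 2.15 to 4.74. Krtap22-2 was at 0.0793 CPM in detergent A replicate 6 and Krtap6-1 at 0.0613 in detergent B replicate 2, with the rest of each group at 0. These values stand on 2 counts and 1 count. A library that holds the only counts of its group always passes the limit, however few they are. The same holds for Krtap6-1 in PBS replicate 1, on 16 counts, and in detergent A replicate 2, on 1 count.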

How the results depend on the processing

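The number of members called against PBS with detergent B, 2 as reported, was 7 by DESeq2, 41 by limma voomWithQualityWeights (40 lower, and Krt84 higher), 1 with no filter on low counts (Krtap2-4) and 1 with only the 12 libraries compared (Krtap1-3), and it was 2 with DESeq2 size factors, a non-robust fit or scaling without the members. With detergent A it was 0 as reported and 32 by voomWithQualityWeights (31 lower, and Krt84 higher), and 0 under the other settings that kept all libraries. The cause of these differences was not tested. Leaving out each library in turn gave 0 to 22 members with detergent B, 0 to 4 with detergent A and 0 between the detergents, and median log2 fold changes of -3.92 to -2.08, -3.14 to -1.31 and -1.63 to 0.24. Over all genes, 514 were called as reported with detergent B and 32 with detergent A. These were 1391 and 797 by DESeq2, 5074 and 3914 by voomWithQualityWeights, 251 and 25 with no filter, and 28 to 1888 and 0 to 888 with 1 library left out. Whether replicate numbers pair the libraries is not known. Same-number correlations were -0.348 to 0.546, and 6 of 18 libraries were closest to their own number. No rate for unpaired libraries was computed, so this check cannot exclude a pairing. With the number as a block, 0 members were called in each comparison, while 377 genes over all were called with detergent B and 0 with detergent A. With the block or no filter, Krtap1-3, Krtap1-4 and Sox9 were not called with detergent B (edgeR adjusted p up to 0.0817, 0.07679 and 0.06554), and Sox9 was also not called with only the 12 libraries compared. The log2 fold change of Krtap3-2 with detergent B turned from -0.26 to 0.12 without PBS replicate 6 and was -0.64 without detergent B replicate 4, the range with 1 library left out. Of 1865 fold changes of named genes under alternatives, 1728 kept direction and side of the threshold, 97 newly passed it, 39 no longer passed it and 1 turned. Only Krtap1-3, Krtap1-4, Krt1 and Sox9, all with detergent B, had a call to lose, so the 39 were all theirs. With 1 library left out they lost it in 10, 8, 2 and 12 of 18 fits. Under the other settings they lost it in 2 of 8, 2 of 7, 0 of 8 and 3 of 8. KAP genes outside the 20 tested are limited by depth, with 16 below 10 counts in all.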

Other observations

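Fgf18, a growth factor of the bulge, ran opposite to the sheath keratins across libraries. It was at 0.896, 0.731, 0.835, 0.118 and 0.833 CPM in PBS replicates 1 to 5 and at 5.81 in replicate 6. With detergent A it was at 0.499, 0.972, 1.48, 5.67, 3.48 and 1.03 CPM in replicates 1 to 6, and with detergent B at 0.624, 2.15, 0.513, 3.12, 4.07 and 3.72. The 8 libraries lowest for the sheath keratins were thus the 8 highest for Fgf18, which was named after its values were seen. The bulge and germ list as a whole did not share this. In PBS replicate 6, Lgr5, Lhx2 and Cdh3 were lower than in PBS replicates 1 to 5, at 21.5, 44.8 and 65.3 CPM. Krt15 and Nfatc1 were higher there, at 1777 and 94.5 CPM, and Cd34 and Sox9 were near the other PBS libraries, at 154 and 90.6 CPM. Padi3, an enzyme that modifies trichohyalin in the sheath, ran opposite to Fgf18. It was at 67.3 to 156 CPM in PBS replicates 1 to 5, 3.41 in PBS replicate 6 and 0.125 in detergent A replicate 4.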
